A study of Mus musculus with 96 samples.

Results

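A set of 8 genes that mark or drive the neural lineage were followed through every processed table of a mouse embryonic stem cell (ESC) study of the Polycomb protein RYBP. They were chosen by symbol: Sox1, Pax6, Nes, Neurog1, Neurog2, Neurod1, Olig2 and Zic1. Of these 8, 7 had a row among the 37620 genes of the count tables. Sox1 had no identifier in the annotation that was counted, so its RNA was not analysed here and it enters only through its chromatin peaks.

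RNA-seq was available for 26 samples in 7 tables, with 2 control and 2 perturbed libraries in each table. In R1 ESCs, an empty vector (shEV) was compared with knockdown of Rybp (shRybp) and of Wdr5 (shWdr5). In R7.15 ESCs, Rybp-floxed cells (Rybp+/+) were compared with cells given 5 µM 4-hydroxytamoxifen (4-OHT) for 4 days to delete Rybp (Rybp-/-). Also in R7.15, RYBPfl/fl Rosa26::CreERT2 cells overexpressing WT RYBP (WT.RYBP) were compared with cells carrying a RYBP.21aa deletion (RYBP phase disruption), and both of these groups had received 4-OHT. R1 WT ESCs were compared with cells bearing a TF-AA mutation, an alteration that the labels name without describing. J1 ESCs with a Tet-on RYBP construct (Tet.RYBP) received vehicle or doxycycline (DOX). The rTRS line, with DOX-inducible Rybp and Stat3, was compared without (NTC) and with DOX. All ESCs were grown in medium with serum and LIF. The sources used here do not say whether the replicates were separate cultures, so p-values measure only the spread between these libraries, which may be technical.

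ChIP-seq peak lists covered RING1B (shEV, shStat3, and the inducible Tet.Rybp.Stat3 cells without and with DOX), H3K4me3, H3K27ac and WDR5 (Rybp+/+ and Rybp-/-), and STAT3 (Rybp+/+, Rybp-/-, DOX- and DOX+). Each list was either made by merging replicates or came from a single library, so no replicate spread remained and the peak values were not tested.

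Neural fate in the embryo begins with progenitors that express the HMG-box factor SOX1, the paired-box factor PAX6, the zinc-finger factor ZIC1 and the intermediate filament nestin, encoded by Nes. The bHLH factors NEUROG1 and NEUROG2 then commit progenitors to neurons, NEUROD1 acts in neuronal differentiation, and OLIG2 specifies motor neuron and oligodendrocyte progenitors. In ESCs such genes are kept at low level, and many lie in bivalent domains, where H3K4me3, a mark of promoters, coexists with Polycomb complexes. RING1B is the ubiquitin ligase of Polycomb repressive complex 1 (PRC1) and RYBP is a subunit of its non-canonical forms. WDR5 is a core subunit of the Trithorax-group complexes that methylate H3K4, and STAT3 is the factor activated by LIF.

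In mammals Polycomb complexes are found mainly at CpG-rich promoters, and CpG dinucleotides are therefore marked in the sequences below. RefSeq promoter windows (GRCm38.p6, 250 bases before the start site to 50 after it) were found for all 8 genes. Each occurred once, without a mismatch, on its own chromosome and strand in mm9. Other chromosomes and the opposite strand were not searched. The windows below span the range of CpG content and include the gene with acetylation at its start (Nes) and the gene with the widest spread of RNA responses (Neurod1). They run 5′ to 3′ along the gene, and capitals mark each CG dinucleotide.
Sox1, mm9 chr8:12395269-12395568, plus strand: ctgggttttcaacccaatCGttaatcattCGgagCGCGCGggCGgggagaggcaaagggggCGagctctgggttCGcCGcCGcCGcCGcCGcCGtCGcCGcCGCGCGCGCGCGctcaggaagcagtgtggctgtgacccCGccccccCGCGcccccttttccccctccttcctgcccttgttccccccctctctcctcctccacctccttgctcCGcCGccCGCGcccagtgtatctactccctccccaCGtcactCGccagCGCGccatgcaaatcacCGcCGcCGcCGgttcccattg
Nes, mm9 chr3:87774765-87775064, plus strand: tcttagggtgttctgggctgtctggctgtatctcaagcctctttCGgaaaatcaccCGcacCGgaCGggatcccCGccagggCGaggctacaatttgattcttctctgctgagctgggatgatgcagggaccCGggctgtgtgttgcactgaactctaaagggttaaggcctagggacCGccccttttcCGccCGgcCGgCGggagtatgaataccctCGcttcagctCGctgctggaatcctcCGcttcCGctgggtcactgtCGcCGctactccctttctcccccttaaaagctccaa
Neurog2, mm9 chr3:127335804-127336103, plus strand: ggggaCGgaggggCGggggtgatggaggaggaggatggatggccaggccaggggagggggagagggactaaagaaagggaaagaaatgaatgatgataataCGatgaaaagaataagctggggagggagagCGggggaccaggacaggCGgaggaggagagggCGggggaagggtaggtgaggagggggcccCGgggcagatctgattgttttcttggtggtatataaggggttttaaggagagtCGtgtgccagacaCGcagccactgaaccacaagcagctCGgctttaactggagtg
Neurod1, mm9 chr2:79296744-79297043, minus strand: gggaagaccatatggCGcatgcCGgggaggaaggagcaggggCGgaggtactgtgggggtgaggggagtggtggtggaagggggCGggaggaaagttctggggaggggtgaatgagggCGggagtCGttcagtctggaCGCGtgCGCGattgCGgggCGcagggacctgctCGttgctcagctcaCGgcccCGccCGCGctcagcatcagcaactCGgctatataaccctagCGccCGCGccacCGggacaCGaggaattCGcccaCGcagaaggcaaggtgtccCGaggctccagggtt
The Sox1 window held 37 CG dinucleotides, more than 94.4% of the 32851 RefSeq promoters, and the Neurog2 window held 10, more than 56.5%. Nes held 18 and Neurod1 held 26. The other genes fell in between, with 18 at the upstream Pax6 start and 16 at the downstream one, 25 at Olig2, 31 at Zic1 and 32 at Neurog1. Across all promoters the median was 7, with quartiles of 3 and 20.

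Motifs were searched on both strands of these windows. The STAT consensus TTCNNNGAA occurred in none of the 8 genes' windows and in 8.3% of all promoters. The octamer ATGCAAAT, the sequence to which OCT4-type POU factors bind, occurred in the Sox1 and Neurog1 windows and in 1.74% of all promoters. The E-box CANNTG, the letters bound by bHLH factors, was found at Neurog1, Neurod1, Zic1 and the downstream Pax6 start, and in 72.3% of all promoters. The GC box GGGCGG was present at every gene except Pax6, and in 35.7% of all promoters. Both strands were searched, no motif was required to lie apart from another, and a match describes these letters only.

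The counted genes lie at mm9 chr2:105509053-105543317 (Pax6), chr3:87775000-87784373 (Nes), chr13:56351866-56353524 (Neurog1), chr3:127336054-127338549 (Neurog2), chr2:79292678-79296908 (Neurod1), chr16:91225795-91228922 (Olig2) and chr9:91252896-91260648 (Zic1).

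All 8 loci carried RING1B over the start site in all 4 RING1B lists. A peak was assigned to a gene when it overlapped 2.5 kb either side of the start site. By that rule 33.2% of the 22367 protein-coding genes had RING1B in all 4 lists, and 43.6% had it in the shEV list. The RING1B regions were broad. In shEV cells the domain over Pax6 measured 32457 bp, reaching 22833 bp beyond the start site. The Sox1 domain measured 16254 bp, that of Olig2 15047 bp, that of Neurog1 14602 bp and that of Zic1 11471 bp. Neurod1, Neurog2 and Nes lay in shorter domains of 6436, 5439 and 4534 bp. At Neurog2 the shEV list held a separate upstream peak, from -7956 to -3744 bp of the start (fold 27.7). The Neurog2 domain over the start measured 13032 bp in the shStat3 list, 13166 bp in DOX- and 11685 bp in DOX+. The median width of all shEV RING1B peaks was 884 bp.

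RING1B enrichment separated the genes further. In shEV cells the fold enrichment over background was 43.8 at Neurog2, 42.3 at Zic1, 40.8 at Olig2, 40 at Pax6, 37.8 at Neurog1 and 35.2 at Sox1. Nes, at 18.8, and Neurod1, at 14, were lowest. They were also the 2 lowest in each of the other 3 lists. The same 2 genes had the highest RNA level per length in 5 of the 6 control groups, with shEV counted once. In WT ESCs this rests on the deposited lengths, 19833 bp for Pax6 and 2729 bp for Neurod1. There, read counts scaled to library size were 2.34 and 1.88 for Pax6 and 1.86 and 1.73 for Neurod1. In shEV, WT.RYBP, Tet.RYBP vehicle and rTRS NTC libraries, Nes and Neurod1 were highest with or without division by length. Over all coding genes with a RING1B peak the median was 5.08, and even the Neurod1 peak exceeded 83.1% of all RING1B peaks in the shEV list.

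**Figure D1:**
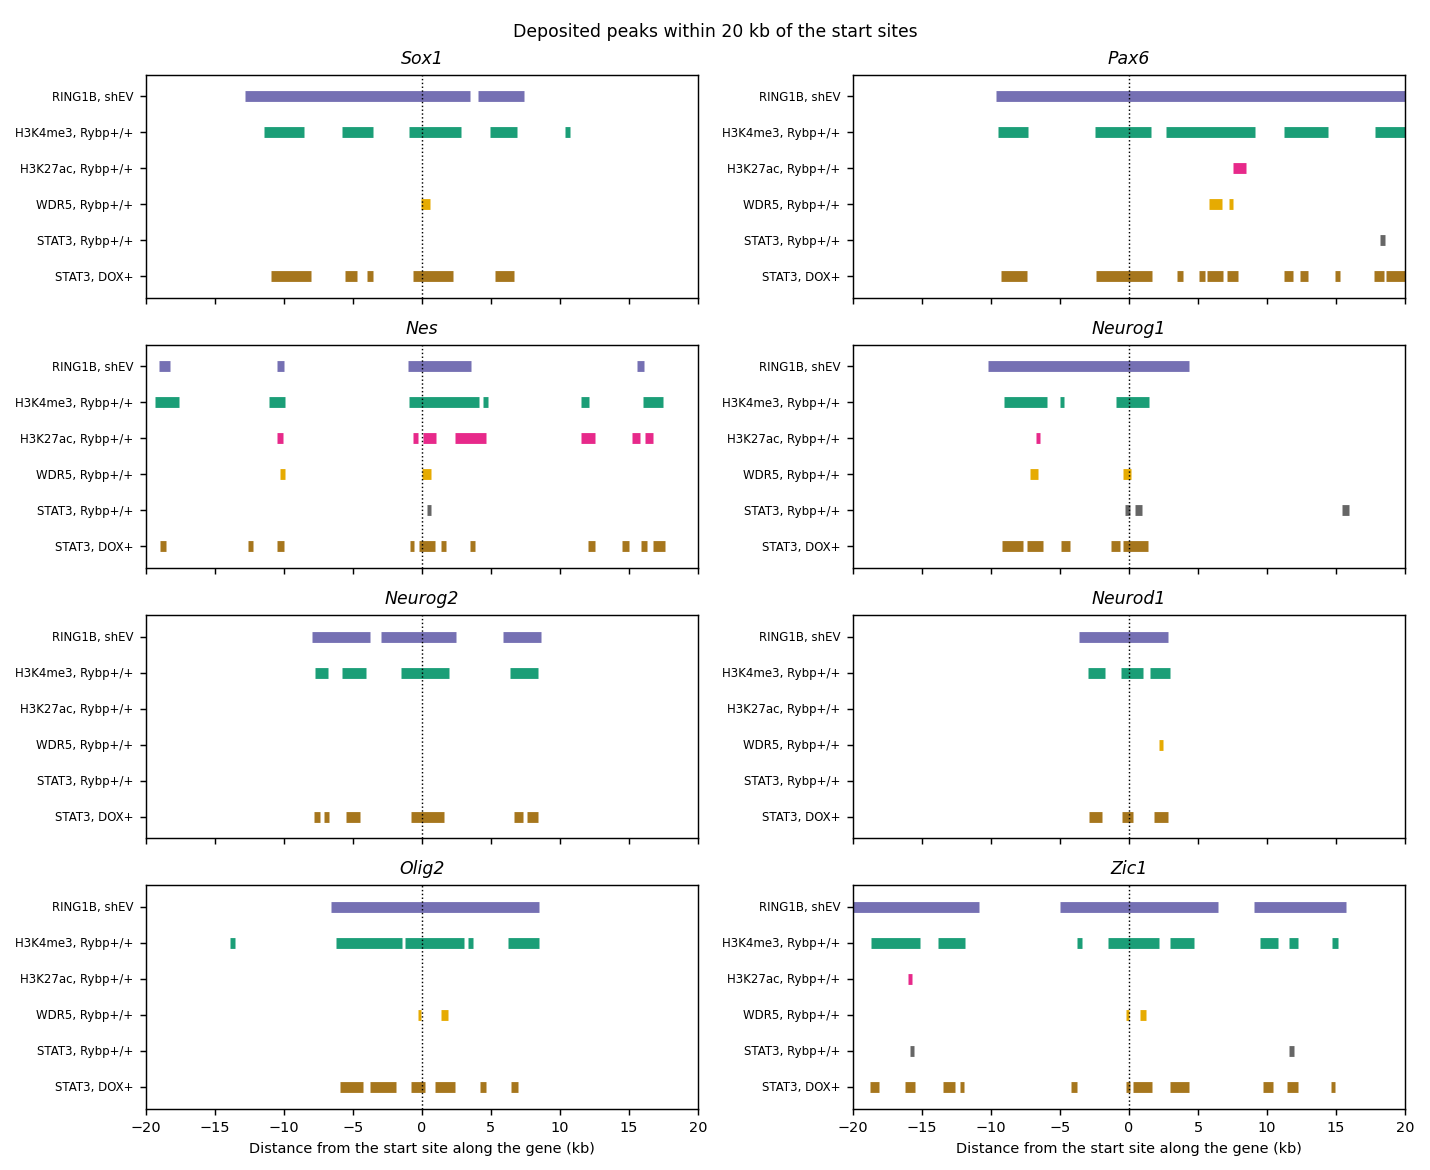
Deposited peaks of RING1B (shEV), H3K4me3, H3K27ac, WDR5 and STAT3 (Rybp+/+) and STAT3 (DOX+) within 20 kb of each start site; the x axis is distance along the gene in kb and each bar is 1 peak. RING1B covers all 8 start sites, with H3K4me3 beneath it, while H3K27ac lies within 2.5 kb of the start only at Nes.

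H3K4me3 also lay within 2.5 kb of all 8 start sites in both genotypes, where 65.8% of coding genes had it. The fold enrichment in Rybp+/+ cells was 42.3 at Nes, 37.3 at Neurog2, 30.7 at Olig2, 28.9 at Sox1, 22.8 at Zic1, 21 at Neurog1, 13.7 at Neurod1 and 10.1 at Pax6. The Pax6 value holds for the window only. Further into Pax6, stronger peaks lay 2645 to 9148 bp (fold 23.6) and 11205 to 14411 bp (fold 13.1) after the start. Within the window, the median over the 8 genes was 25.8, against 34.8 over all coding genes with such a peak. Thus 8 of 8 genes, and 43.3% of coding genes, had both a RING1B peak in the shEV list (R1 cells) and an H3K4me3 peak in the Rybp+/+ list (R7.15 cells). Since these lists come from different lines, they do not show both on the same chromatin.

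H3K27ac, a mark of active promoters and enhancers, was found near the start site of 1 of 8 genes, Nes, in each genotype. The share was 49.5% of coding genes in Rybp+/+ cells and 52.4% in Rybp-/- cells. Across these lists the other 7 genes had RING1B and H3K4me3 with no H3K27ac, a combination present at 13.6% of coding genes. At Nes, 3 acetylated peaks overlapped the window in Rybp+/+ cells. The strongest, 2279 bp wide, ran from 2382 to 4660 bp into the gene, mostly beyond the window (mm9 chr3:87777382-87779660). Of its bases, 392 lay in annotated exons and the rest in introns. Pax6 had 1 acetylated peak inside the gene, 7550 bp from the start (mm9 chr2:105516603-105517488), of fold 4.58. No H3K27ac peak lay within 20 kb of Sox1, Neurog2, Neurod1 or Olig2 in either genotype.

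WDR5 was present in Rybp+/+ cells at 6 of 8 start sites, all except Pax6 and Neurog2, and at 44.9% of coding genes. In Rybp-/- cells it was present at 7, with Neurog2 added. Pax6 had WDR5 inside the gene, beyond the window. In Rybp+/+ cells these peaks lay 5816 to 6713 bp (fold 5.13) and 7269 to 7499 bp (fold 3.82) after the start. In Rybp-/- cells a peak lay 6243 to 6493 bp after it (fold 3.58). The peaks at start sites were weak: the fold ranged from 2.79 at Neurod1 to 4.84 at Olig2 in Rybp+/+ cells, and the median of coding genes with a peak was 5.6. With peaks below the median fold of each list left out, 0 of 8 genes kept a WDR5 peak in Rybp+/+ cells and 3 in Rybp-/- cells.

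Upon Rybp deletion, the H3K4me3 peak at Nes had a lower fold enrichment, 21 in Rybp-/- cells against 42.3 in Rybp+/+ cells, a ratio of 0.496. By the highest peak of each list, the other 7 genes had ratios between 0.908 at Zic1 and 1.25 at Neurog1. At Neurod1, where the highest peak was not the same one in both lists, the peak over the start went from 10.1 to 12.7, the downstream peak from 13.7 to 10.6 and the upstream peak from 8.31 to 4.66. The upstream peak of Olig2 went from 20.6 to 29.7. Across all 14559 coding genes with the peak in both lists, the ratios had quartiles of 0.853 and 1.26. The 2 main H3K27ac peaks of Nes moved apart. The peak just after the start had a fold of 6.86 in Rybp+/+ cells and the peak over the start 3.7 in Rybp-/- cells, while the stronger intragenic peak went from 7.42 to 13.5, and over 10876 coding genes the quartiles of such ratios were 0.735 and 1.13. For WDR5 the ratio was 0.675 at Nes and 1.84 at Neurod1, and the quartiles over all genes were 0.843 and 1.34. These lists have no replicate spread, so none of the shifts could be tested.

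RING1B was compared between lists in the same way. With DOX in the Tet.Rybp.Stat3 cells, the fold was lower at 7 of 8 genes. It was 53.1 without and 33.1 with DOX at Sox1, 53.1 and 38.4 at Olig2, 53.3 and 36.5 at Zic1, and 18.8 and 19 at Neurod1, the exception. The median ratio of the 8 genes was 0.728. The same ratio was 0.724 over the 8782 coding genes with a peak in both lists, 87.8% of which had a lower fold with DOX, so the neural genes moved with the whole list. Between shStat3 and shEV, the median ratio was 1.06 for the 8 genes and 1.01 for all genes. Nes (18.8 in shEV, 28.1 in shStat3) and Neurod1 (14 and 19.6) had the highest ratios by their highest peaks, 1.49 and 1.4, where the quartiles over all genes were 0.846 and 1.22. The Neurod1 domain was split in the shStat3 list: the value of 19.6 belongs to an upstream peak, and the peak over the start had a fold of 13.2. Neurog2 (43.8 and 34.5) and Neurog1 (37.8 and 30) had the lowest, 0.787 and 0.793.

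**Figure D2:**
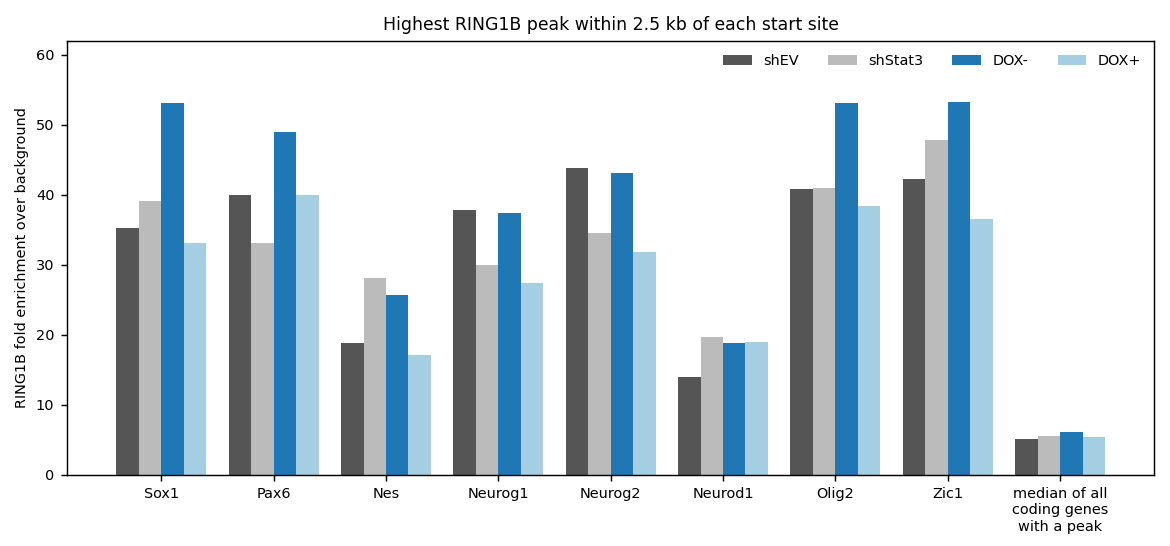
Fold enrichment of the highest RING1B peak within 2.5 kb of each start site in the 4 RING1B lists (bars, axis from 0), with the median of all coding genes that have a peak at the right. The 8 genes range from 14 to 53.3, the coding-gene medians from 5.08 to 6.06, and Nes and Neurod1 are lowest in each list.

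STAT3 peaks lay near 2 of 8 start sites in Rybp+/+ cells (Nes and Neurog1), 2 in Rybp-/- cells (Sox1 and Nes), 3 in DOX- cells (Sox1, Nes and Zic1) and 8 in DOX+ cells. The share of coding genes was 6.94%, 5.9%, 8.31% and 54.9%, since the DOX+ list held 30663 peaks and the DOX- list 2816. Nes was the member with STAT3 in all 4 lists, as were 0.867% of coding genes. Its DOX+ peak had a fold of 15.3, above 99.5% of that list. The Neurog1 peak, at 11.7, exceeded 98.2%, and that of Zic1, at 9.27, exceeded 95.1%.

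Before the RNA of the neural genes is described, the perturbed genes were examined. Values are given as CPM, read counts scaled to a common library size with trimmed mean of M-values factors. Rybp was 110 and 110 CPM in Rybp+/+ libraries and 24.8 and 25 in Rybp-/- libraries. It was 85.7 and 86.4 in shEV and 35.8 and 36.6 in shRybp. Wdr5 was 350 and 343 in shEV and 60 and 58.2 in shWdr5. Each knockdown also moved the other gene: Rybp went from 79.9 and 81.3 to 121 and 117 in shWdr5 (edgeR adjusted p = 3.8e-09), and Wdr5 from 372 and 364 to 265 and 260 in shRybp (edgeR adjusted p = 2.7e-08). Tet.RYBP cells had 135 and 145 CPM of Rybp with vehicle and 522 and 535 with DOX. Both arms of the phase disruption table were high in Rybp, at 749 and 753 against 662 and 626. The rTRS table did not show the induction its label names. Rybp was 113 and 110 in NTC and 102 and 99.8 in the libraries labelled DOX (log2 fold change -0.15, edgeR adjusted p = 0.076, not called). Stat3 was 159 and 172 against 191 and 188 and was called higher, by 0.20 on the log2 scale (edgeR adjusted p = 0.026), in a table where 23.0% of all genes were. Where it was not a target, Stat3 changed by 0.16 in Rybp knockdown, 0.11 in knockout and -0.27 in phase disruption. The STAT3 peak lists, from separate samples, held 2816 peaks without and 30663 with DOX. Whether the inducible transgenes can be counted as these mouse genes is not given in the sources used here.

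Depth was 75496499 to 81049618 gene counts per library in the knockout table, 50312058 to 53779354 in the rTRS table, 38961268 to 52303725 in the Rybp knockdown table, 31465829 to 35897734 in the Tet.RYBP table, 18509543 to 21500931 in the TF-AA and Wdr5 tables, and 14512857 to 16354044 in the phase disruption table. The shEV libraries served both knockdowns; their counts in the Wdr5 table were 0.509 and 0.506 of those in the Rybp table, and no gene was higher there, so both knockdowns share their controls. Pou5f1 (OCT4), the defining marker of pluripotent cells, was between 419 and 1100 CPM in the control libraries of all 7 tables. Fewer cells of a type and less RNA per cell cannot be told apart in these bulk samples.

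The neural genes were low and unequal in the control libraries. Levels are compared here as CPM per kb of the deposited gene length. In the deepest table, Rybp+/+, Nes was highest at 7.18 and 7.6 CPM per kb, above 83.4% of all genes. Olig2 followed at 1.19 and 1.12 and Neurod1 at 0.788 and 1.09, and these 2 genes did not overlap, though the nearest libraries were 1.12 and 1.09. Pax6 was at 0.0969 and 0.0827 and Neurog1 at 0.0537 and 0.0899, overlapping each other. That overlap depends on the deposited lengths, 19833 bp for Pax6 and 1659 bp for Neurog1. Before division by length, Pax6 was 1.92 and 1.64 CPM and Neurog1 0.0891 and 0.149 CPM, without overlap. Neurog2 (0.0514 and 0.0223) and Zic1 (0.0156 and 0.0371) were lowest per kb, and these 2 genes overlapped.

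The order varied between tables, also within the R1 line. Neurod1 was above Nes in shEV (2.83 and 2.8 CPM per kb against 2.23 and 2.4), in Tet.RYBP with vehicle (1.77 and 2.09 against 1.42 and 1.38) and in rTRS NTC (3.78 and 3.04 against 2.78 and 2.2). WT ESCs had Nes at 2.52 and 3.14 and Neurod1 at 0.683 and 0.634, while Neurog1, Neurog2 and Olig2 had no read in either WT library. In WT.RYBP cells Nes reached 28 and 25 CPM per kb, above 93.3% of genes, and Zic1, which was at most 0.0662 in the control libraries of the other tables, reached 1.43 and 1.35. Neurog2 was at most 0.084 CPM per kb in any control library and had too few reads to be tested in any table. Levels were set across tables only as descriptions, since each table was normalised on its own.

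**Figure D3:**
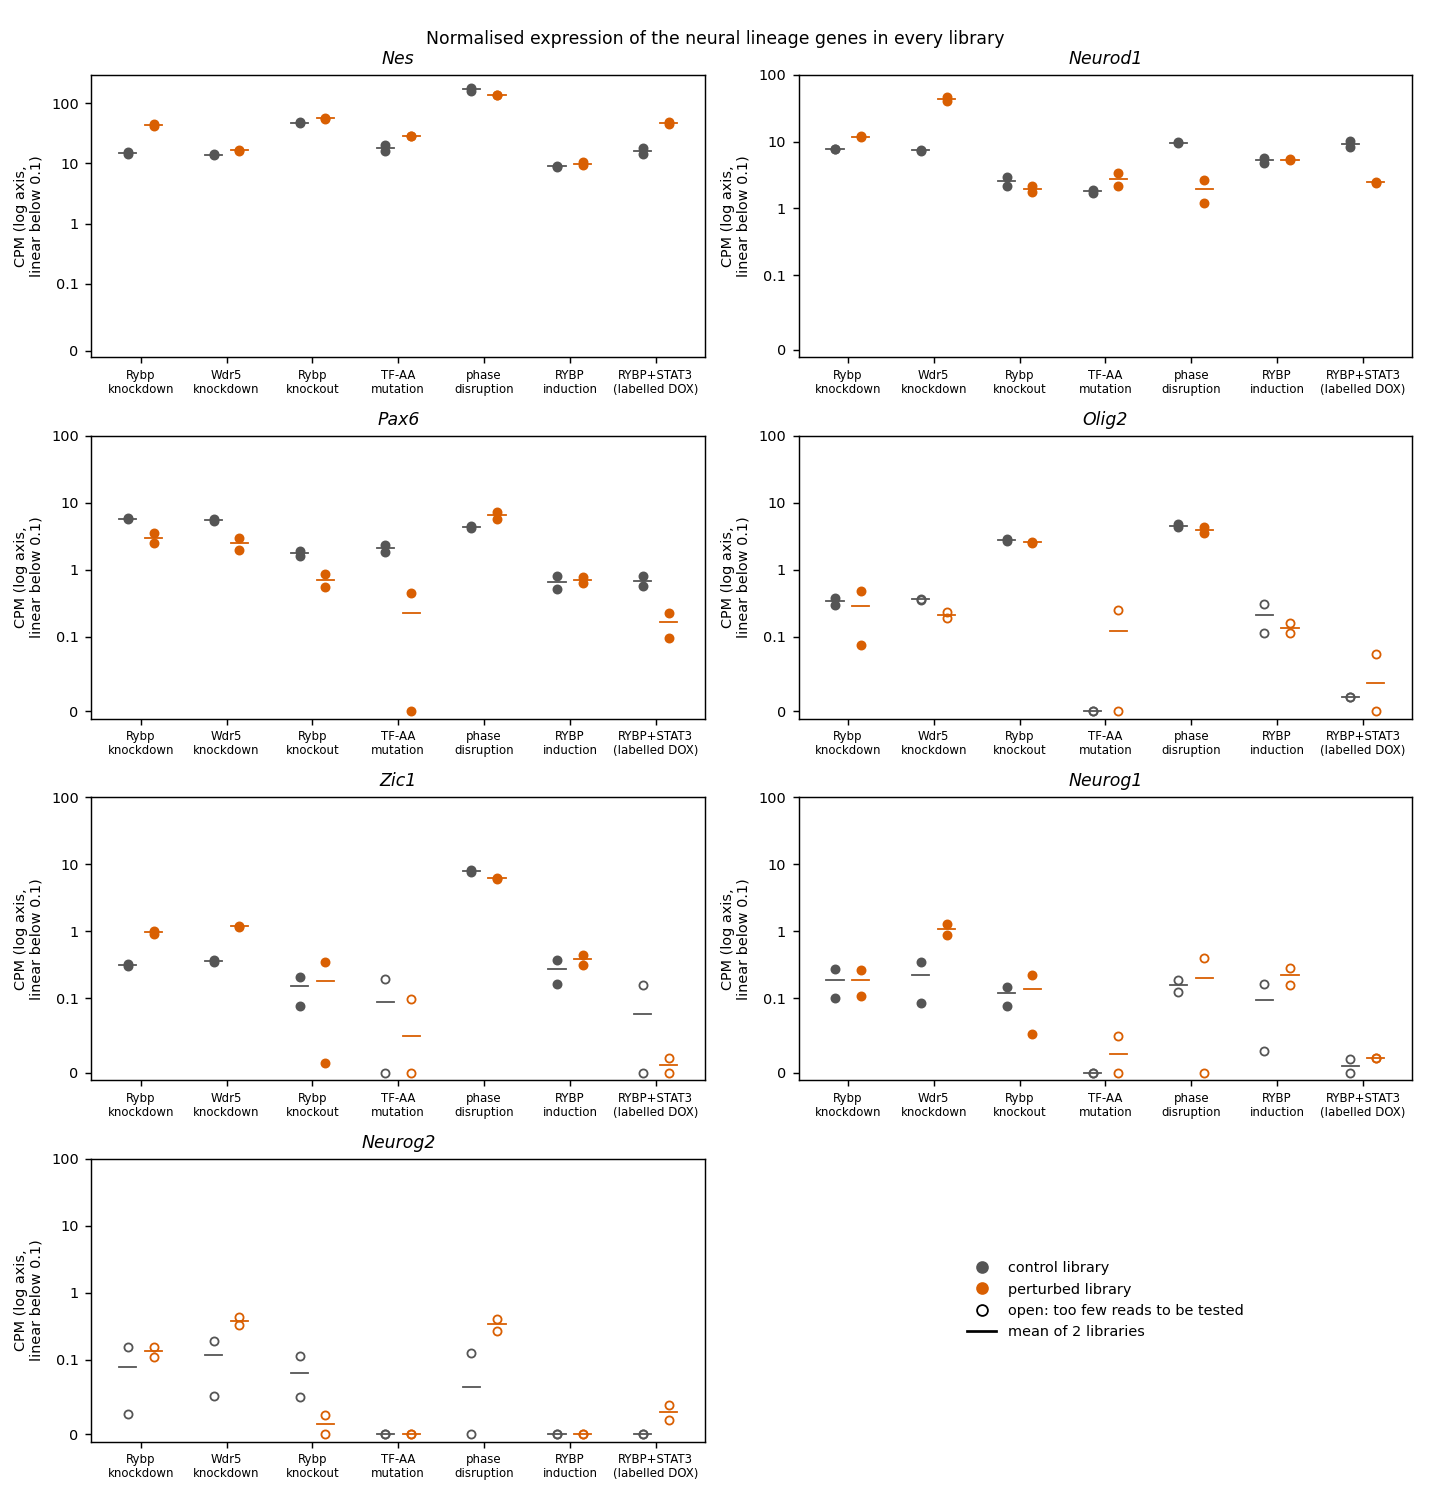
CPM of the 7 counted genes in every library (points) with the mean of the 2 libraries (lines), by comparison; the y axis is logarithmic and linear below 0.1, and open points mark genes with too few reads to be tested. Nes is higher in the perturbed than in the control libraries in 6 of 7 tables, and Pax6 is lower in 5 of 7.

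Rybp knockdown raised the progenitor genes Nes and Zic1 and the neuronal gene Neurod1, and lowered Pax6. Of 6 genes tested, 3 rose and 1 fell at an adjusted p under 0.05 (edgeR quasi-likelihood test, Benjamini-Hochberg over all genes). In this comparison 52.7% of all 16538 tested genes were called, 26.8% higher and 26.0% lower, so 4 of 6 is close to the background. Nes was 14.3 and 15.4 CPM in shEV and 41.4 and 45.3 in shRybp, without overlap. The log2 fold change was 1.55 ± 0.08 (SE, n = 2 per group; edgeR adjusted p = 2.7e-11), a rise of 2.92-fold. Neurod1 was 7.74 and 7.64 in shEV and 11.9 and 11.7 in shRybp, again apart. Its log2 fold change was 0.62 ± 0.12 (edgeR adjusted p = 2.7e-04).

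Pax6 moved in the opposite direction in the same libraries. It was 5.66 and 5.95 CPM in shEV and 2.55 and 3.5 in shRybp, a log2 fold change of -0.95 ± 0.19 (edgeR adjusted p = 4.4e-04). Zic1 rose from 0.329 and 0.299 CPM to 0.924 and 1, by 1.61 ± 0.51 on the log2 scale (edgeR adjusted p = 0.013). This rests on 13 and 11 reads in shEV and 51 and 45 in shRybp, and the call was lost without either shRybp replicate (adjusted p = 0.075 and 0.1). Olig2 (0.303 and 0.381 against 0.489 and 0.0892 CPM) and Neurog1 (0.101 and 0.272 against 0.109 and 0.267) overlapped between groups. Their log2 fold changes of -0.20 ± 0.72 and -0.01 ± 0.80 leave wide intervals, from -1.71 to 1.32 and from -1.68 to 1.67.

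Wdr5 knockdown, measured against the same shEV libraries, raised the bHLH genes Neurod1 and Neurog1 and the progenitor gene Zic1. Pax6 fell, and Nes rose slightly. All 5 genes tested were called, 4 higher and 1 lower, beside 63.0% of the 15143 genes tested (31.5% in each direction). Neurod1 was 7.25 and 7.59 CPM in shEV and 45.6 and 39.8 in shWdr5. This was a rise of 5.76-fold, or 2.53 ± 0.10 on the log2 scale (edgeR adjusted p = 6.8e-16). It was the largest rise of any tested member in the 7 tables. Neurog1, which lies upstream of Neurod1 in sensory and cortical neurogenesis, was 0.0935 and 0.354 CPM in shEV and 0.888 and 1.3 in shWdr5. From 2 and 7 reads in shEV to 19 and 27 in shWdr5, the groups did not overlap, and the log2 fold change was 2.28 ± 0.55 (edgeR adjusted p = 0.001). It was 1.61 without shEV replicate 1 and 3.46 without shEV replicate 2, and was called in both cases.

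Zic1 also separated, with 0.374 and 0.354 CPM in shEV and 1.21 and 1.15 in shWdr5. Its log2 fold change was 1.68 ± 0.45 (edgeR adjusted p = 0.0023). Neurog2 had 4 and 1 reads in shEV and 7 and 9 in shWdr5, too few to be tested. Pax6 was 5.42 and 5.67 CPM in shEV and 2.99 and 1.97 in shWdr5, a log2 fold change of -1.16 ± 0.21 (edgeR adjusted p = 4.5e-05). Nes was 13.6 and 14.5 against 16.3 and 16.9, a log2 fold change of 0.24 ± 0.10 (edgeR adjusted p = 0.04). The Nes call was lost with DESeq2 (adjusted p = 0.18), without a filter on low counts (0.064) and without shEV replicate 1 (0.16), shWdr5 replicate 1 (0.068) or shWdr5 replicate 2 (0.15).

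In Rybp knockout, Nes rose and Pax6 fell, and 4 of the 6 tested genes were not called, where 45.5% of 16955 genes were called (22.8% higher, 22.7% lower). Pax6 was 1.92 and 1.64 CPM in Rybp+/+ and 0.565 and 0.87 in Rybp-/-, from 151 and 132 reads to 43 and 67. The log2 fold change was -1.31 ± 0.28 (edgeR adjusted p = 2.8e-04). Nes was 46.1 and 48.8 CPM in Rybp+/+ and 55.6 and 57 in Rybp-/-, which is 0.25 ± 0.05 on the log2 scale, or 1.19-fold (edgeR adjusted p = 8.2e-05). Neurod1 overlapped between the genotypes, at 2.15 and 2.97 against 2.19 and 1.74 CPM. Its log2 fold change was -0.38 ± 0.21 (edgeR adjusted p = 0.14); without Rybp+/+ replicate 1 it was -0.60 and passed the threshold (adjusted p = 0.035). Olig2 was 2.89 and 2.72 against 2.52 and 2.61 CPM, a difference of -0.13 ± 0.18 with an interval from -0.49 to 0.23. Zic1 (7 and 17 reads against 1 and 27) and Neurog1 (7 and 12 against 4 and 17) were few and scattered. Neurog2 had 9 and 4 reads in Rybp+/+ and 0 and 2 in Rybp-/-, and was not tested.

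The 2 ways of removing Rybp were compared directly in 1 model of the 8 libraries, in which table and ESC line cannot be told apart. Nes and Neurod1 differed between them, among 6 genes tested, while 40.5% of all 18203 genes differed. For Nes the knockdown effect exceeded the knockout effect by 1.27 ± 0.09 on the log2 scale (edgeR adjusted p = 2.3e-10). For Neurod1 the excess was 0.97 ± 0.23 (edgeR adjusted p = 0.0015). Pax6, which fell in both, gave a difference of 0.34 ± 0.34 (edgeR adjusted p = 0.47), with an interval from -0.36 to 1.04.

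In TF-AA mutant cells, Nes rose and Pax6 fell to near the limit of detection. Of 3 genes tested 2 were called, beside 30.5% of 14456 genes (14.4% higher, 16.1% lower). The count of 4412 genes fell to 2756 and 2750 without mutant replicate 1 or 2. Nes was 16.2 and 20.2 CPM in WT and 28.5 and 29.1 in mutant libraries, 0.67 ± 0.12 on the log2 scale (edgeR adjusted p = 1.4e-04). Pax6 had 49 and 38 reads in WT libraries and 9 and 0 in mutant libraries. The log2 fold change of -3.16 ± 0.60 (edgeR adjusted p = 2.3e-04) has an interval from -4.39 to -1.93, and DESeq2 did not call it (adjusted p = 0.25). The value was -2.22 without mutant replicate 2; without replicate 1 the lone mutant library has no read, and the fitted -8.40 is no bound. Neurod1 was 1.86 and 1.73 CPM in WT and 2.19 and 3.36 in mutant libraries, without overlap but uncalled (0.62 ± 0.31, edgeR adjusted p = 0.14). The remaining 4 genes had at most 5 reads in any library.

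RYBP phase disruption, set against WT.RYBP, lowered Neurod1 and Nes and raised Pax6. Among 5 genes tested, 3 were called, beside 33.0% of 14575 genes (16.1% higher, 17.0% lower). DESeq2 called 2 of the 5 and 2980 genes in all, against 4814 with edgeR. Neurod1 was 9.5 and 9.73 CPM in WT.RYBP and 2.65 and 1.21 in phase disruption libraries. It fell by 2.31 ± 0.25 on the log2 scale (edgeR adjusted p = 3.0e-09), from 151 and 156 reads to 39 and 18. Without phase disruption replicate 1 the value was -2.98. Nes was 180 and 161 CPM against 135 and 135, a log2 fold change of -0.33 ± 0.05 (edgeR adjusted p = 1.1e-05). Pax6 was 4.22 and 4.49 against 7.4 and 5.72, a log2 fold change of 0.59 ± 0.21 (edgeR adjusted p = 0.029). That call was lost with DESeq2 (adjusted p = 0.16), without a filter (0.088), without either WT.RYBP replicate (0.13 and 0.071) and without phase disruption replicate 1 (0.28). Zic1, at 8.12 and 7.67 against 6.32 and 5.98 CPM, did not overlap but was not called (-0.36 ± 0.18, edgeR adjusted p = 0.12). Olig2, at 4.4 and 4.8 against 4.35 and 3.5, gave -0.23 ± 0.23 (edgeR adjusted p = 0.48). Neurog1 (2 and 3 reads against 0 and 6) and Neurog2 (2 and 0 against 6 and 4) were not tested.

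RYBP induction in Tet.RYBP cells moved none of the 4 tested genes past the threshold in edgeR or DESeq2, and none had an unadjusted p under 0.05. The background was lower here, with 6.02% of 14937 genes called (3.63% higher, 2.39% lower). That count of 899 genes depended on single libraries: it was 1575 and 1477 without vehicle replicate 1 or 2, and 400 and 410 without DOX replicate 1 or 2. Nes was 9.08 and 8.84 CPM with vehicle and 9.28 and 10.5 with DOX, a log2 difference of 0.14 ± 0.16 and an interval from -0.19 to 0.47. Neurod1 was 4.82 and 5.71 with vehicle and 5.25 and 5.51 with DOX (0.03 ± 0.21, interval -0.39 to 0.46). The Nes and Neurod1 changes of 1.55 and 0.62 in Rybp knockdown lie above these intervals, although the difference between those tables was not tested. Pax6 (0.09 ± 0.64) and Zic1 (0.49 ± 0.86) were too low for narrow limits, with at most 29 reads a library. Neurog1, Neurog2 and Olig2 had at most 11 reads in any of these libraries.

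In the rTRS libraries labelled DOX, Nes rose and Neurod1 and Pax6 fell. As given above, Stat3 was slightly higher in these libraries and Rybp was not. All 3 genes tested were called, beside 43.4% of 16291 genes (23.0% higher, 20.4% lower). Nes was 17.8 and 14.1 CPM in NTC and 48 and 45.6 in the libraries labelled DOX, 1.55 ± 0.11 on the log2 scale (edgeR adjusted p = 2.2e-07). Neurod1 was 10.3 and 8.3 against 2.52 and 2.43, a log2 fold change of -1.91 ± 0.18 (edgeR adjusted p = 2.9e-06). Pax6 was 0.567 and 0.819 against 0.231 and 0.0982, a log2 fold change of -2.06 ± 0.67 (edgeR adjusted p = 0.025). It rested on 29 and 44 reads against 12 and 5, and the call was lost without NTC replicate 2 (adjusted p = 0.13) or DOX replicate 2 (0.11), and the value was -2.79 without DOX replicate 1. The remaining 4 genes had at most 8 reads in any library. In these same libraries 6 of 7 tested pluripotency markers fell, among them Zfp42 (REX1), from 881 and 897 to 271 and 282 CPM. Mesoderm markers rose in 3 of 7 tested, with sums of 14.1 to 16.6 against 63.5 to 70.1 CPM. The part of these shifts in the neural gene changes was not tested.

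**Figure D4:**
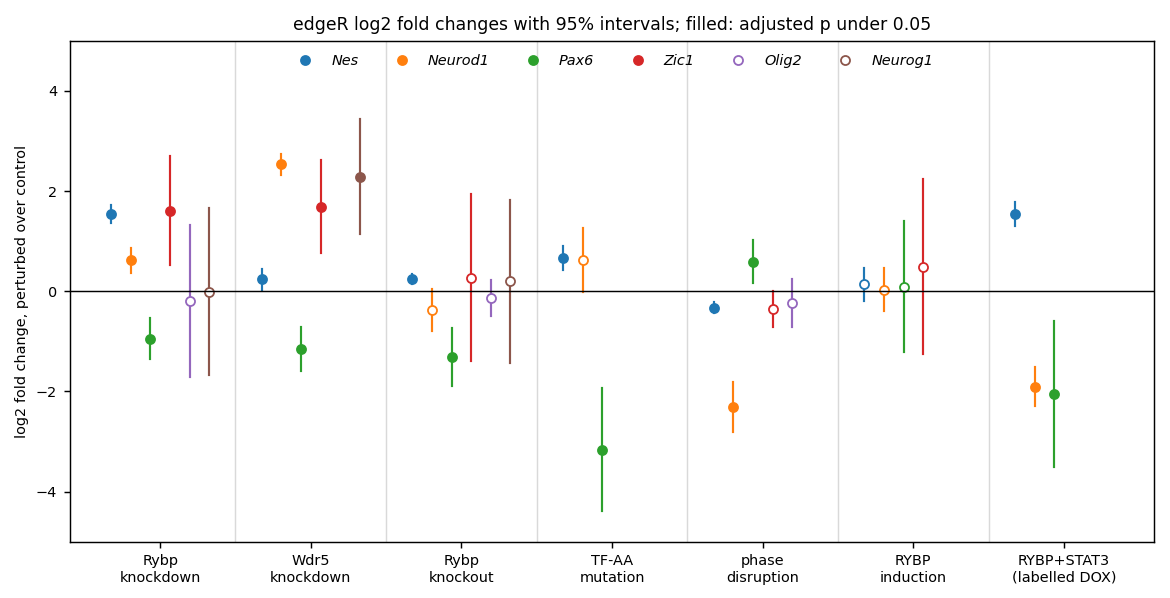
edgeR log2 fold changes of the 6 genes tested in at least 1 table (y axis, perturbed over control), with 95% intervals; filled points have an adjusted p under 0.05. Nes lies above 0 in 6 comparisons and below 0 in phase disruption, Pax6 below 0 in 5, and Neurod1 runs from -2.31 in phase disruption to 2.53 in Wdr5 knockdown.

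Read across the tables, no gene kept 1 direction in all 7. Nes was called higher in 5 tables and lower in phase disruption. Pax6 was called lower in 5 tables (both knockdowns, knockout, TF-AA and the rTRS libraries labelled DOX) and higher in phase disruption. Neurod1 was called higher in both knockdowns and lower in phase disruption and in rTRS. Zic1 was called in both knockdowns, which share their controls. Neurog1 was tested in 3 tables and called in Wdr5 knockdown; its difference from Rybp knockdown was not tested, and the 2 intervals (1.14 to 3.43 and -1.68 to 1.67) overlap. For Zic1 the direct test of Rybp knockdown against knockout found no difference past the threshold (1.31 ± 1.12 on the log2 scale, interval -1.02 to 3.64, edgeR adjusted p = 0.39), and differences from the other tables were not tested. Olig2 was called in none of the 3 tables where it was tested. When an absolute log2 fold change above 1 was also required, 2 of 6 tested genes were called in Rybp knockdown (Nes and Zic1), beside 12.6% of all genes, and 4 of 5 in Wdr5 knockdown, beside 18.6%. The count was 1 of 6 in knockout (7.84% of all genes), 1 of 3 in TF-AA mutants (8.14%), 1 of 5 in phase disruption (6.77%), 0 of 4 in RYBP induction (0.904%) and 3 of 3 in rTRS (12.0%).

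Markers of other cells moved with several of these comparisons. Their counts stand beside the shares of all genes called, which were 26.8% higher and 26.0% lower in Rybp knockdown, 31.5% each way in Wdr5 knockdown, 22.8% and 22.7% in knockout, 14.4% and 16.1% in TF-AA mutants, 16.1% and 17.0% in phase disruption, 3.63% and 2.39% in RYBP induction and 23.0% and 20.4% in rTRS. With so few markers in a list, counts such as 2 of 4 or 3 of 7 are not far from these shares. For fibroblast or feeder cells, 8 genes were listed. In Rybp knockdown 4 of 4 tested rose, and their summed level went from 18.7 to 18.9 CPM in shEV to 31.5 to 32.3 in shRybp, while Dcn and Lum had no read. In Rybp knockout 7 of 8 rose, with sums of 56.9 to 57.9 against 116 to 122 CPM. In TF-AA mutants 3 of 3 tested rose, with sums of 11 to 11.7 against 24.2 to 24.7 CPM, and Col3a1, Dcn and Lum had no read. In phase disruption 3 of 8 fell, with sums of 427 to 432 against 345 to 369 CPM, the highest of all tables, as was Nes. In Wdr5 knockdown 1 rose and 1 fell of 3 (18 to 18.4 against 15.4 to 15.8 CPM), in RYBP induction 0 of 2 moved (7.7 to 8.69 against 5.77 to 7.74), and in rTRS 1 rose and 1 fell of 3 (22.7 to 24.2 against 22 to 28.2). Dcn and Lum had no read in the Wdr5 and Tet.RYBP tables either. Fibroblasts can express Nes, and the part of these markers in its changes was not tested.

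Trophectoderm markers rose too, 4 of 5 tested in Rybp knockdown (sums of 3.59 to 3.74 against 18.9 to 19.5 CPM), 3 of 4 in Wdr5 knockdown (3.49 to 3.69 against 21.4 to 23.6), 4 of 5 in knockout (7.06 to 7.2 against 12.6 to 12.8), 4 of 4 in phase disruption (11.2 to 11.3 against 40.2 to 40.5) and 4 of 4 in rTRS (9.67 to 10.5 against 60.5 to 60.5). Of 7 primitive endoderm markers tested, 5 rose and 1 fell in Rybp knockdown, and 4 rose and 1 fell in Wdr5 knockdown. These markers rose in 3 of 7 in knockout (8.94 to 10.1 against 16.9 to 18.1 CPM) and in 2 of 5 in TF-AA mutants (11.6 to 11.9 against 20.9 to 21.2). In rTRS 1 of 6 rose and 1 fell, with sums of 7.86 to 9.49 against 20.9 to 21.7 CPM. The 1 trophectoderm marker tested in TF-AA mutants also rose (0.334 to 0.395 against 3.13 to 4.06). Neural crest markers share tissue of origin with some neural genes. Of 4 tested in each knockdown, 2 rose and 1 fell. Their summed level was lower there (304 to 360 CPM in shEV against 180 to 193 in shRybp, and 288 to 339 against 171 to 177 in shWdr5). In knockout 3 of 4 neural crest markers rose (13 to 14.1 against 18.6 to 19.7). Pluripotency markers moved both ways, 3 higher and 3 lower of 7 tested in Rybp knockdown, 2 higher and 5 lower in Wdr5 knockdown and 4 higher and 2 lower in knockout. OCT4 (Pou5f1) went in the knockdowns from 1080 and 1100 to 679 and 699 CPM and from 1010 and 1030 to 615 and 615. Their part in the neural gene changes was not tested.

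A list of 44 other neural genes, of which 43 had a row, moved in both directions. It was chosen with earlier results of these data known, and it is described by counts only. In Rybp knockdown 5 of 33 tested rose and 10 fell, with a median log2 fold change of 0.11 beside 0.02 for all genes. The shares of all genes called higher and lower, given above for each comparison, were 26.8% and 26.0% here. The ventral progenitor factor Nkx2-2 rose from 0.329 and 0.408 CPM to 3.99 and 2.96 and N-cadherin (Cdh2) from 3.84 and 3.02 to 7.54 and 8.92. Of the genes that fell, Tubb3, a neuronal tubulin, went from 287 and 299 to 184 and 182 CPM, Stmn2 from 358 and 334 to 228 and 216 and Elavl3 from 15.2 and 14 to 8.26 and 8.54.

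In Wdr5 knockdown 13 of 32 rose and 9 fell, with a median of 0.17, beside 31.5% of all genes in each direction. Nkx2-2 rose again, from 0.327 and 0.506 to 4.95 and 5.42 CPM, as did Pou3f3 (2.34 and 3.7 to 11.2 and 13.5) and Sox21 (6.55 and 6.93 to 27.7 and 27.3). Elavl3 (14.5 and 13.5 to 2.48 and 2.59), the progenitor gene Sox3 (30.5 and 44.3 to 13.3 and 13.4) and Stmn2 (336 and 314 to 156 and 149) fell. Thus Neurod1 rose in libraries in which the neuronal genes Elavl3 and Stmn2 fell. In Rybp knockout 3 of 32 rose and 11 fell, with a median of 0.06, beside 22.8% of all genes higher and 22.7% lower. Cdh2 rose from 5.18 and 4.18 to 8.58 and 8.06 CPM, Gli3 from 13.7 and 12.3 to 16.3 and 14.1 and Tubb3, which fell in Rybp knockdown, from 53.4 and 57.9 to 61.7 and 60.3. Insm1 fell from 4.85 and 4.52 to 2.69 and 1.77 CPM, Sox21 from 26.5 and 27.2 to 14 and 12.1 and Zic2 from 57.4 and 63.6 to 32.3 and 32.6.

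In the other 4 tables the counts were even or small. In TF-AA mutants 6 of 24 rose and 6 fell (median -0.08; all genes 14.4% and 16.1%), with Sox21 at 2.58 and 2.77 against 11.9 and 12.1 CPM and the RNA-binding protein gene Msi1 at 49.9 and 47.5 against 15.4 and 18.1. In phase disruption 2 of 27 rose and 5 fell (median 0.04; all genes 16.1% and 17.0%), with Zic2 at 47.6 and 48.7 against 17.5 and 16.9 CPM. In RYBP induction 1 of 26 rose and 3 fell (median -0.09; all genes 3.63% and 2.39%), with Msi1 at 19.7 and 19.1 against 34.5 and 27.7 and Tubb3 at 95.9 and 81.5 against 58.4 and 59.6. In the rTRS libraries labelled DOX 9 of 29 rose and 9 fell (median 0.19; all genes 23.0% and 20.4%), with Zic2 at 11 and 9.18 against 38.1 and 35.4 and Tubb3 at 129 and 120 against 35 and 30.6 CPM.

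**Figure D5:**
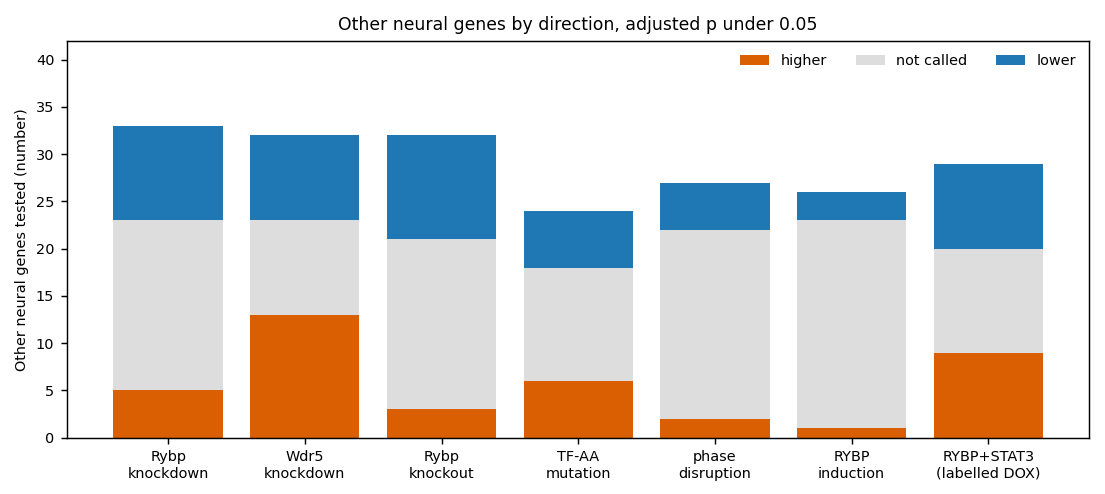
Number of other neural genes tested in each comparison (y axis), split into those higher, lower and not called at an adjusted p under 0.05. At most 13 genes rose in any table, and genes of both directions appear in each of the 7.

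The 18 listed repressors and Notch pathway genes, among them repressors of neuronal bHLH genes, also split. In Rybp knockdown 9 of 17 tested rose and 4 fell (all genes 26.8% and 26.0%), in Wdr5 knockdown 11 rose and 4 fell (31.5% each), and in knockout 6 rose and 6 fell (22.8% and 22.7%). In TF-AA mutants 1 of 16 rose and 7 fell (14.4% and 16.1%), and in phase disruption 5 of 17 rose and 7 fell (16.1% and 17.0%). In RYBP induction 2 rose and 1 fell (3.63% and 2.39%), and in rTRS 7 rose and 6 fell (23.0% and 20.4%).

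Nes, Pax6 and Neurod1 were tested in all 7 tables, so that their pattern of log2 fold changes could be set beside those of other genes with at least 1 CPM in each table. Over the 7 comparisons, the pattern of Neurod1 was most like those of Trmt1 (Pearson r = 0.983) and Rbm45 (r = 0.976), and 94 of 11614 genes had an r above 0.9. For Nes these were Col5a1 (r = 0.958) and Epha1 (r = 0.954), with 30 genes above 0.9, and for Pax6 they were Trub1 (r = 0.965) and Gm12141 (r = 0.947), with 11. These correlations describe 7 points, of which the knockdown pair shares its controls.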

How the data were processed

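RNA-seq counts were deposited as 7 tables of raw reads per gene. Per the study's methods and the submitters' processing notes, the authors trimmed reads with Trim Galore, aligned them to mm9 with STAR and counted them with HTSeq; the strand setting is not given in the sources used here. Rows for reads in no feature (4.84 to 9.94% where listed) were left out. The deposited peak lists give MACS2 fold enrichment over background, a ratio, and the −log10 of the q-value; replicates had been merged in 10 of the 14 lists, and 4 came from a single sample. Several column names did not match a sample title exactly and were mapped within their own table. For the RYBP and STAT3 induction lists, the TF-AA, phase disruption and Tet.RYBP samples, the detailed methods are not given in the sources used here. Chromatin samples without a peak list were not analysed here.

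Each table was fitted on its own with edgeR 4.0.16 in R 4.3.3: trimmed mean of M-values scaling, filterByExpr with a minimum count of 10, quasi-likelihood test of 2 against 2 libraries, two-sided, Benjamini-Hochberg over all genes tested, threshold 0.05. Intervals are 95%. The 2 Rybp removals were set against each other by an interaction term over 8 libraries. The script was tested on simulated data. Alternatives were DESeq2 1.42.0, its size factors, no filter, an absolute log2 fold change above 1, a replicate block and leaving out each library; for peaks they were other windows, thresholds and overlaps. A gene had a peak when at least 1 bp of it lay within 2.5 kb of the start site (GENCODE mm9; RefSeq for Sox1). For the Tet.RYBP table, which has no length column, lengths came from the other tables.

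The members and gene lists were chosen with earlier results of these data known. All 8 members are named. From the 44 other neural genes, up to 3 per direction and table were eligible, with the largest absolute log2 fold change among those called with a mean of at least 1 CPM, and 1 eligible gene is not reported here; the 2 genes most like a member were taken by Pearson r. Replicate numbers did not pair the libraries: deviations of same-numbered libraries correlated at -0.00 to 0.20, with 2 pairs per table.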

Additional observations from a re-analysis of the deposited data

Results flagged for a closer look

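The effect of Rybp knockdown (R1 cells) differed from that of Rybp knockout (R7.15 cells) for 2 members, by a test of the difference itself. For Nes, knockdown minus knockout was 1.27 on the log2 scale (interval 1.08 to 1.47; edgeR adjusted p = 2.3e-10), with both libraries higher in each perturbed group. For Neurod1 it was 0.97 (interval 0.50 to 1.45; edgeR adjusted p = 0.0015), with both shRybp libraries above shEV and the knockout groups overlapping. The cell line, the control and the depth of Rybp loss (log2 fold changes of -1.25 and -2.15) differ between the 2 experiments and cannot be told apart.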

How the results depend on the processing

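Of 19 called member fold changes, 14 kept their call and direction under every alternative run other than the fold threshold given next, and 0 reversed; the replicate block lost 0 of these calls. With an absolute log2 fold change above 1 required, the members called numbered 2 in Rybp knockdown, 4 in Wdr5 knockdown, 1 in Rybp knockout, 1 in TF-AA mutation, 1 in phase disruption, 0 in RYBP induction and 3 in the rTRS table; DESeq2 called 1 in TF-AA mutation. The cause of that last change was not tested. Uncalled fold changes of low genes changed sign. In Rybp knockdown, Neurog1 was 2.0e-03 without a filter, 0.03 with the replicate block and -0.75 to 0.84 over leaving out each library, where Olig2 was -1.90 to 0.52. In Rybp knockout, Neurog1 was -1.16 to 0.88 and Zic1 -3.37 to 1.21 over leaving out each library, both lowest without Rybp-/- replicate 2, and Zic1 was -0.16 with the replicate block. In RYBP induction, Pax6 was -0.18 to 0.44 and Neurod1 -0.08 to 0.16 over leaving out each library.

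With peaks below each list's median fold left out, WDR5 peaks were left at 0 (Rybp+/+) and 3 (Rybp-/-) members and STAT3 peaks at 0, 0 and 1 (Rybp+/+, Rybp-/- and DOX-). With 500 bp of overlap STAT3 gave 1, 1 and 0, and within 1 kb the Rybp-/- list gave 1. RING1B, H3K4me3 and H3K27ac counts did not move by more than 1.5 times. With 2 libraries a group and few reads, Neurog1, Neurog2, Zic1 and Olig2 allow only wide limits in most tables.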
